A study of Mus musculus with 45 samples.

Results

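Genes of the immediate early response were followed mouse by mouse through the RNA-seq count table of colonic epithelium, namely Fos, Fosb, Jun, Junb, Jund, Egr1, Atf3, Ier2, Ier3 and Zfp36. They are 10 of the 24918 gene entries in the table, found by their symbols, and each symbol had 1 entry. The genes were selected on their normalised counts in these same libraries, with earlier results in view in which several of them were lower in formerly obese than in control mice. Their levels and differences between the groups are therefore given as descriptions, with standard errors and without p-values.

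The samples came from male mice, C57BL/6 by the labels and C57BL/6J by the methods of the study, that started their diets at 6 weeks of age and stayed on them for 20 weeks. Control mice ate a diet with 10% fat throughout, and obese mice a diet with 60% fat. Formerly obese mice ate the high-fat diet for 15 weeks and the low-fat diet for the following 5 weeks, and lard was the fat source of both diets. Each group had 5 RNA-seq libraries of the epithelium that EDTA released from the entire colon, which is a bulk sample of all cells in that fraction. All mice were collected at 1 age. The groups differ in diet history, in the diet at collection and in body weight. The study reports that the weight of formerly obese mice was back to normal. Which of these a difference between groups follows was not tested.

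Immediate early genes are transcribed within minutes of a stimulus from factors already present in the cell, without new protein synthesis. Growth factor and stress signals reach them through MAP kinases, which act on serum response factor (SRF) with its ternary complex partners at CArG boxes, and through CREB at cyclic AMP response elements. Fos and Jun family proteins pair through leucine zippers to form AP-1, which binds variants of TGANTCA. Most of their mRNAs are short-lived, in part because proteins such as tristetraprolin, the product of Zfp36, bind AU-rich elements in the 3′ UTR and lead to decay. In the intestinal epithelium these genes are known to respond to growth factors and injury.

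Because the genes tended to move together, their promoters are shown with the short elements that SRF and CREB are known to read. RefSeq sequence of GRCm38.p6 was at hand for 8 of the 10 genes, and Egr1 and Ier2 were not matched. In a window from 250 bases before to 50 bases after the start, searched on both strands, TGACG (the core of the cyclic AMP response element) occurred in 4 of 8, namely Fos, Fosb, Junb and Atf3, against 20.81% of 32851 mouse promoters of the same length. The full element TGACGTCA, which contains that core, was in 0 of 8 (1.79% of all). A CArG box, named here for the SRF consensus, was in 1 of 8 (Zfp36, 1.63% of all), and TATAAA in 2 of 8 (Fos and Junb, 13.62% of all). The AP-1 element TGANTCA was in 0 of 8 (7.81% of all), the Egr element GCGNGGGCG in 2 of 8 (Fosb and Zfp36, 5.55% of all) and the ETS element CCGGAA in 1 of 8 (Zfp36, 14.9% of all). A match is a run of letters and not a measured binding site. Elements outside the window, and variants of an element that differ from the letters given, were not searched. The 250 bases before the start are printed for the 3 genes of the Fos and Jun families with TGACG there and for Zfp36, 5′ to 3′ on the gene's strand, with TGACG and the TATA and CArG boxes in capitals. Fos lies at chr12:85473640-85473889 on the plus strand, Fosb at chr7:19310046-19310295 on the minus strand, Junb at chr8:84978749-84978998 on the minus strand and Zfp36 at chr7:28379229-28379478 on the minus strand.
Fos: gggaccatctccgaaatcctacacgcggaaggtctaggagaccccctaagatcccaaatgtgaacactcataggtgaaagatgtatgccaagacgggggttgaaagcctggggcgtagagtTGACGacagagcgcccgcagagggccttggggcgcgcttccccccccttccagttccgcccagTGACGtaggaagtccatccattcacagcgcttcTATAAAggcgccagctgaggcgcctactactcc
Fosb: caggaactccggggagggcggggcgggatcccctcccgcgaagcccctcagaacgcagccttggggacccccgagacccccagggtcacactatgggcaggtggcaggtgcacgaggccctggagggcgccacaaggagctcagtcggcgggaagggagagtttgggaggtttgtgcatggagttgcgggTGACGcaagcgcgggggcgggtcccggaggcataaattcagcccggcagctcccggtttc
Junb: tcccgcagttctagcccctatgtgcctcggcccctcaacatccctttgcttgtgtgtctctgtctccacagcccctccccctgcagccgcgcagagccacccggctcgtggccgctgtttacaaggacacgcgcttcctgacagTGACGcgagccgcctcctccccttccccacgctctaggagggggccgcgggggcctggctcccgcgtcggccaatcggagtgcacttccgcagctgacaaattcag
Zfp36: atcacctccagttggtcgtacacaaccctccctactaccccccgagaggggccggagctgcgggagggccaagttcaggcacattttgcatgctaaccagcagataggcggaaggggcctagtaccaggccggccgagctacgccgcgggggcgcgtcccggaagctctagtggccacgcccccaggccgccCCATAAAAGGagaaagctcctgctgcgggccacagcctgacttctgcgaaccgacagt

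In the Fos promoter TGACG began 129 and 66 bases before the start and TATAAA 33 bases before it. TGACG began 60 bases before the start of Fosb and 106 bases before that of Junb, and the CArG box of Zfp36 began 58 bases before its start. The TATAAA of Junb began at the annotated start itself, so it lies after the printed bases. The 3′ ends of the mRNAs, looked at after the expression values were seen, were searched for AU-rich elements. The nonamer UUAUUUAUU, the preferred site of tristetraprolin, occurred in the 3′ UTR of 2 of the 10 genes, Fos and Zfp36 itself, against 6.61% of 18565 mouse genes. Both sites are shown with the nonamer in capitals.
Fos: uuuucaauUUAUUUAUUaagaugga
Zfp36: ugacgacuUUAUUUAUUguauuaag

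The shorter pentamer AUUUA, which the nonamer contains, was found at 8.32 copies per kilobase of 3′ UTR in Ier3, 4.90 in Fos, 4.12 in Junb and 3.88 in Zfp36, against a median of 1.12 over all genes. Ier2 had 0 copies in its 755 bases, and Fosb had 0.466 per kilobase. The other 4 genes had 1.68 to 3.25 copies per kilobase.

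The libraries held 15230391 to 22762095 counts, and the highest total was that of formerly obese mouse 3. Levels are given as CPM, the counts of a gene relative to the library total after TMM scaling, which corrects for library size and composition. The epithelial markers summed to 20700 to 27800 CPM in control mice, 22300 to 27600 in obese mice and 24300 to 29900 in the formerly obese mice, and all 12 of 12 passed the filter on low counts. Of the immune markers 7 of 9 passed and their sum was 23.2 to 40.2, 32.3 to 60.5 and 27.0 to 52.6 CPM in the same order, and of the fibroblast markers 4 of 6 passed with 2.34 to 10.9, 6.78 to 17.4 and 6.02 to 30.7 CPM. Smooth muscle markers (0 of 5 passed) reached at most 2.39 CPM, endothelial markers (1 of 4) 9.03 CPM, enteric neuron and glia markers (1 of 5) 2.36 CPM and adipocyte markers (0 of 4) 0.374 CPM, and the adipocyte genes Plin1 and Lep had 0 counts in every library. The part that these cells have in the levels below was not tested. In bulk samples, fewer expressing cells and less RNA per cell cannot be told apart.

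All 10 genes passed the filter, and 12961 genes were tested. Per kilobase of exon, which allows levels of different genes to be compared, Fos stood first in control mice at 216 ± 26.4 CPM per kilobase (SD, n = 5). Zfp36 was next, at 176.5 ± 28.5 CPM before division by its 1765 exon bases, then Ier2 at 78.8 ± 9.75 and Jun at 73.2 ± 9.69, and the ranges of 1 SD of Ier2 and Jun overlapped. Jund (58.6 ± 6.58), Atf3 (55.5 ± 12.8), Junb (52.9 ± 7.80) and Egr1 (51.2 ± 6.52) could not be ordered beyond their spread. Fosb was lower at 30.1 ± 7.89, and Ier3 stood last at 5.05 ± 1.04.

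A gene was called when it differed by more than 1.2-fold with p under 0.01 and adjusted p under 0.25 in edgeR's quasi-likelihood test, the cutoffs of the study. Of the 10 genes, 0 were called in obese against control mice, where 0.864% of tested genes were called lower and 0.718% higher. DESeq2 also called 0. In the edgeR test 1 of the 10 had an unadjusted p under 0.05, beside 1407 of the 12961 tested genes. Between formerly obese and control mice, 6 were called lower (Fos, Fosb, Junb, Jund, Atf3 and Ier2) beside 1.87% of all tested genes, and 0 were called higher beside 1.85%. In formerly obese against obese mice, 5 were called lower (Fosb, Jun, Junb, Jund and Ier2) beside 1.42%, and 0 higher beside 1.23%. The genes were chosen for lower values in formerly obese mice, so nothing is read from the calls of that group. The contrasts also share libraries pairwise, and the median log2 difference of the 10 genes was −0.04, −0.39 and −0.39 in the order just given, with 6, 9 and 9 of 10 below 0. Over all tested genes the medians were 0.0002, −0.0006 and 0.0023.

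**Figure D1:**
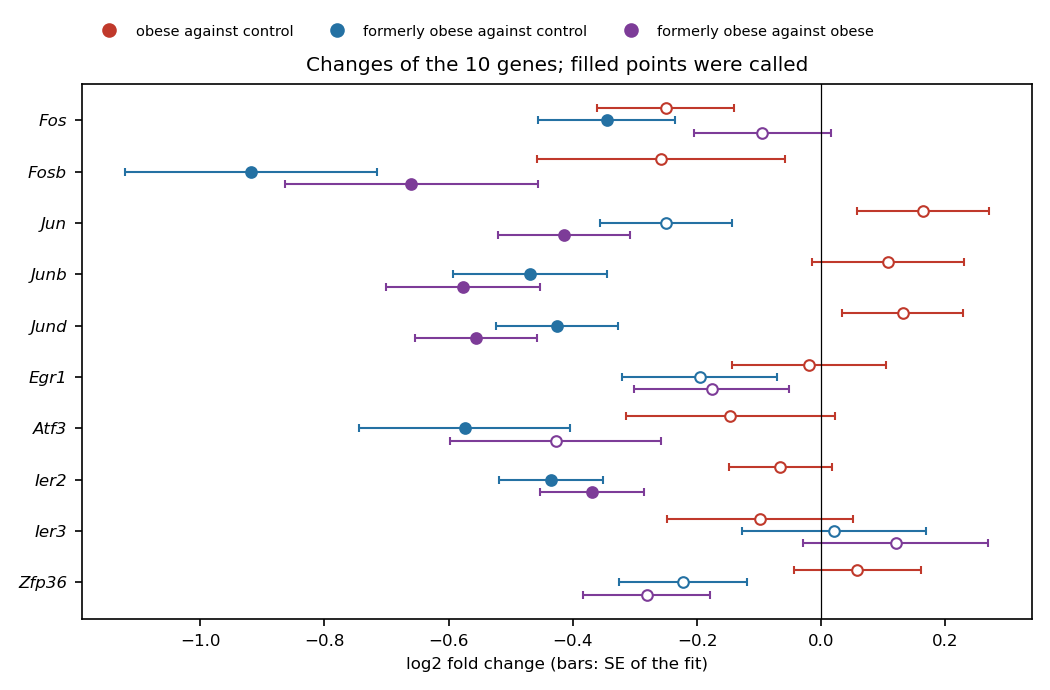
Log2 fold change of each of the 10 genes in the 3 comparisons (x axis), with bars for the standard error of the edgeR fit over 15 libraries; filled points were called. The obese against control points lie on both sides of 0, from −0.26 (Fosb) to 0.16 (Jun). In both comparisons of formerly obese mice 9 of 10 genes lie below 0, with Ier3 the exception.

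Fos encodes the prototype Fos protein, which forms AP-1 only with a Jun partner. In control mice Fos measured 540.1, 399.7, 460.3, 410.4 and 465.9 CPM in mice 1 to 5. It measured 295.9, 400.9, 365.8, 369.8 and 481.2 CPM in obese mice and 310.3, 410.5, 376.9, 326.3 and 368.1 CPM in formerly obese mice. The obese group spanned nearly the whole range, with mouse 5 above 4 of the 5 control mice, while only the second formerly obese mouse came above the lowest control mice. Fos differed from control by −0.25 ± 0.11 (log2, SE) in obese and −0.35 ± 0.11 in formerly obese mice, and by −0.09 ± 0.11 between formerly obese and obese mice. It was thus the 1 gene of the 10 for which obese mice stood nearer to formerly obese than to control mice by the size of the difference. The call against control was lost without control mouse 1 (−0.28), 3 (−0.34) or 5 (−0.34) or formerly obese mouse 1 (−0.30) or 4 (−0.31).

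Fosb, the second Fos family member, had the widest difference. Control mice gave 138.0, 105.2, 113.5, 72.27 and 150.2 CPM, obese mice 83.85, 92.78, 85.12, 103.8 and 118.6 CPM, and formerly obese mice 45.55, 95.58, 56.21, 66.98 and 42.69 CPM. Of the formerly obese mice 4 lay below every other mouse of the study, and the second lay among the obese mice. The log2 difference was −0.92 ± 0.20 (SE) from control and −0.66 ± 0.20 from obese mice, with means of 116 ± 30.4 (SD, n = 5) in control mice, 96.8 ± 14.5 in obese mice and 61.4 ± 21.4 CPM in the formerly obese mice. Against obese mice the call was lost without obese mouse 2 (−0.68), 4 (−0.64) or 5 (−0.58) or formerly obese mouse 1 (−0.57), 3 (−0.63) or 5 (−0.56). The obese against control value was −0.26 ± 0.20.

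Atf3, a stress-induced bZIP factor that pairs with Jun proteins, followed the same order of groups. Control mice measured 142.9, 90.83, 115.9, 78.91 and 120.3 CPM, obese mice 77.56, 111.5, 81.17, 100.7 and 124.8 CPM, and formerly obese mice 55.92, 97.02, 80.29, 74.21 and 61.3 CPM. Again the second formerly obese mouse was the highest of its group, and the groups overlapped. The log2 difference was −0.57 ± 0.17 (SE) from control, −0.43 ± 0.17 from obese mice (not called) and −0.15 ± 0.17 between obese and control mice. The call against control was lost without control mouse 1 (−0.46), formerly obese mouse 1 (−0.49) or formerly obese mouse 5 (−0.52), and a call against obese mice was gained without formerly obese mouse 2 (−0.54).

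In obese mice the means of the 3 Jun genes lay above those of control mice, and the means of both Fos genes lay below. Jun, whose protein can pair with itself or with a Fos protein, measured 244.7, 218.4, 233.1, 193.4 and 276.6 CPM in the control group, 207.9, 264.3, 252.4, 245.1 and 336.5 CPM in the obese group and 184.1, 218.6, 200.8, 193.2 and 183.8 CPM in the formerly obese group. Formerly obese mice filled a narrow band at the foot of the range, with a coefficient of variation of 7.36% against 13.2% in control mice. Jun was 0.16 ± 0.11 (log2, SE) higher in obese than in control mice, which was not called, and differed by −0.41 ± 0.11 between formerly obese and obese mice. Against control it differed by −0.25 ± 0.11, called among the alternatives only without control mouse 4 (−0.31).

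Junb, an AP-1 subunit often described as opposing Jun in proliferation, measured 105.6, 89.92, 93.13, 80.39 and 117.2 CPM in control mice, 94.35, 122.0, 105.6, 80.4 and 121.6 CPM in obese mice and 85.22, 57.41, 70.85, 73.17 and 64.58 CPM in the formerly obese mice. Of the formerly obese mice 4 were below every control and obese mouse, and the first was not. Jund, the Jun gene that is usually expressed at a steady level without stimulation, measured 166.2, 155.2, 146.8, 182.6 and 192.7 CPM in control mice, 177.8, 217.5, 180.0, 152.4 and 196.0 CPM in obese mice and 150.1, 110.2, 129.1, 126.8 and 111.9 CPM in the formerly obese mice. The formerly obese mice were all below the obese mice, and the first of them overlapped the control range. Junb differed by −0.47 ± 0.12 from control and −0.58 ± 0.12 from obese mice (log2, SE), and Jund by −0.43 ± 0.10 and −0.56 ± 0.10. Leaving out any 1 library kept both calls for both genes, with values of −0.55 to −0.39 and −0.66 to −0.51 for Junb and −0.50 to −0.37 and −0.63 to −0.49 for Jund. The genes were chosen on these same libraries, so the kept calls describe the values and are no evidence for a difference.

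Since the genes of both families are measured in the same mice, their summed levels per kilobase were set against each other, a measure chosen after the values were seen. The Jun family (Jun, Junb and Jund) over the Fos family (Fos and Fosb) gave a ratio of 0.755 ± 0.072 (SD, n = 5) in control mice, 0.990 ± 0.097 in obese mice and 0.784 ± 0.135 in the formerly obese mice. The ratios of obese mice (0.858 to 1.10) lay above all control ratios (0.657 to 0.837), and those of formerly obese mice (0.629 to 0.983) spanned both. The Fos sum went from 246 ± 32.5 in control to 207 ± 35.1 in obese and 186 ± 22.9 CPM per kilobase in formerly obese mice, and the Jun sum from 185 ± 20.5 to 203 ± 28.8 and 143 ± 9.23. No test was run on the ratio, because it was picked for this pattern. It was also not computed after the correction for GC content that is given below.

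Ier2, a nuclear protein of the early growth response, had a coefficient of variation of 6.18% among formerly obese mice, against 12.4% in control mice. Control mice measured 124.9, 115.7, 105.9, 109.8 and 143.1 CPM, obese mice 104.1, 131.0, 107.5, 103.4 and 126.6 CPM, and formerly obese mice 96.58, 89.75, 89.45, 85.83 and 81.77 CPM. Every formerly obese mouse was below every mouse of both other groups. Ier2 differed by −0.43 ± 0.08 from control and −0.37 ± 0.08 from obese mice (log2, SE), and by −0.07 ± 0.08 between obese and control mice. Of the 10 genes, 0 stood apart without overlap, on the lower side, in obese against control mice (1.26% of tested genes), 1 (Ier2) in formerly obese against control mice (1.87%) and 2 (Jund and Ier2) in formerly obese against obese mice (1.89%).

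The remaining 3 genes were not called in any comparison. Egr1, a zinc-finger transcription factor induced by growth signals, ranged over 132.9 to 180.2 CPM (median 164.7) in control mice, 125.4 to 216.2 (median 143.9) in obese mice and 111.6 to 151.7 (median 139.2) in the formerly obese mice. Its log2 difference from control was −0.02 ± 0.12 (SE) in obese and −0.20 ± 0.12 in formerly obese mice. Zfp36 ranged over 138.0 to 210.9 CPM (median 182.9), 149.4 to 217.4 (median 179.5) and 143.7 to 166.0 (median 147.6), with −0.22 ± 0.10 from control and −0.28 ± 0.10 from obese mice in the formerly obese group. Both were thus on the lower side in formerly obese mice within overlapping groups, and Zfp36 was called against obese mice by DESeq2 (−0.28), when control libraries stayed out of the fit (−0.28), and in fits that left out control mouse 1 (−0.28), control mouse 4 (−0.28) or obese mouse 1 (−0.34). It was also called against control mice without control mouse 4 (−0.30). Ier3, which encodes a regulator of survival signalling, had only 68 to 137 counts per library and ranged over 4.216 to 7.079 CPM in control mice, 4.264 to 6.29 in obese mice and 4.604 to 6.107 in the formerly obese mice. Its differences were −0.10 ± 0.15, 0.02 ± 0.15 and 0.12 ± 0.15 in the 3 comparisons, so it was the 1 gene without a lower value in formerly obese mice.

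**Figure D2:**
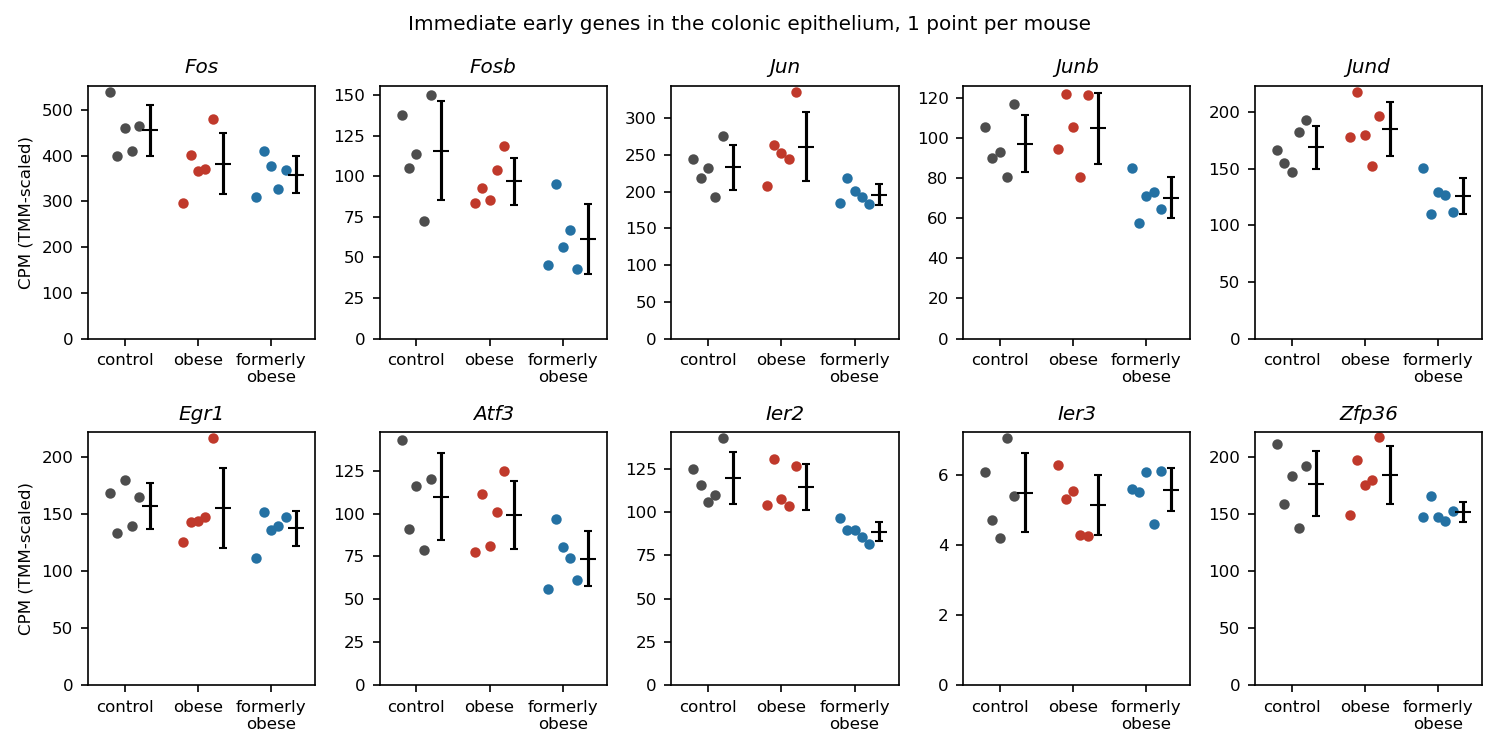
Level of each gene in CPM (y axis, TMM-scaled, from 0) in control, obese and formerly obese mice, 1 point per mouse in the order of the mouse numbers, with the mean and SD of 5 mice beside the points. The 5 formerly obese points of Ier2 (81.77 to 96.58) lie below all others, and obese mouse 5 is the highest point of Egr1 at 216.2.

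The genes also differed in how far mice of 1 group spread. The biological coefficient of variation that edgeR estimated from all 15 libraries was 22.2% for Fosb and 18.6% for Atf3, wider than 91.3% and 86.3% of tested genes. It was 11.0% to 13.9% for Fos, Jun, Junb, Jund, Egr1, Ier3 and Zfp36 and 9.35% for Ier2, against a median of 8.30% over all genes. All 10 were above that median.

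Mice that were high in 1 gene tended to be high in the others, except for Ier3. Over the 15 libraries the correlation of log2 CPM had a median Pearson's r of 0.737 over the 36 pairs without Ier3 (0.203 to 0.922) and of −0.364 over the 9 pairs with it (−0.479 to −0.006). With the group means taken off, so that only differences between mice of a group remained, the medians were 0.593 (−0.179 to 0.876) and −0.378. These are descriptions over libraries that share their preparation, and no p is given. Within groups 2 sets of genes stood out, which were noticed in these values, were not tested and were not cleanly separate. Fos, Fosb, Jun, Egr1, Atf3 and Zfp36 went together (Fos with Zfp36 0.876, Fosb with Atf3 0.866, Fos with Atf3 0.846), and so did Junb, Jund and Ier2 (0.743 to 0.793). Between the sets Jund was near 0 with Fos (−0.03), Atf3 (−0.087) and Zfp36 (0.044), while Ier2 kept 0.677 with Jun and 0.592 with Zfp36. Junb kept 0.503 with Jun and 0.485 with Zfp36, and Fosb with Egr1, inside the first set, was at 0.564.

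**Figure D3:**
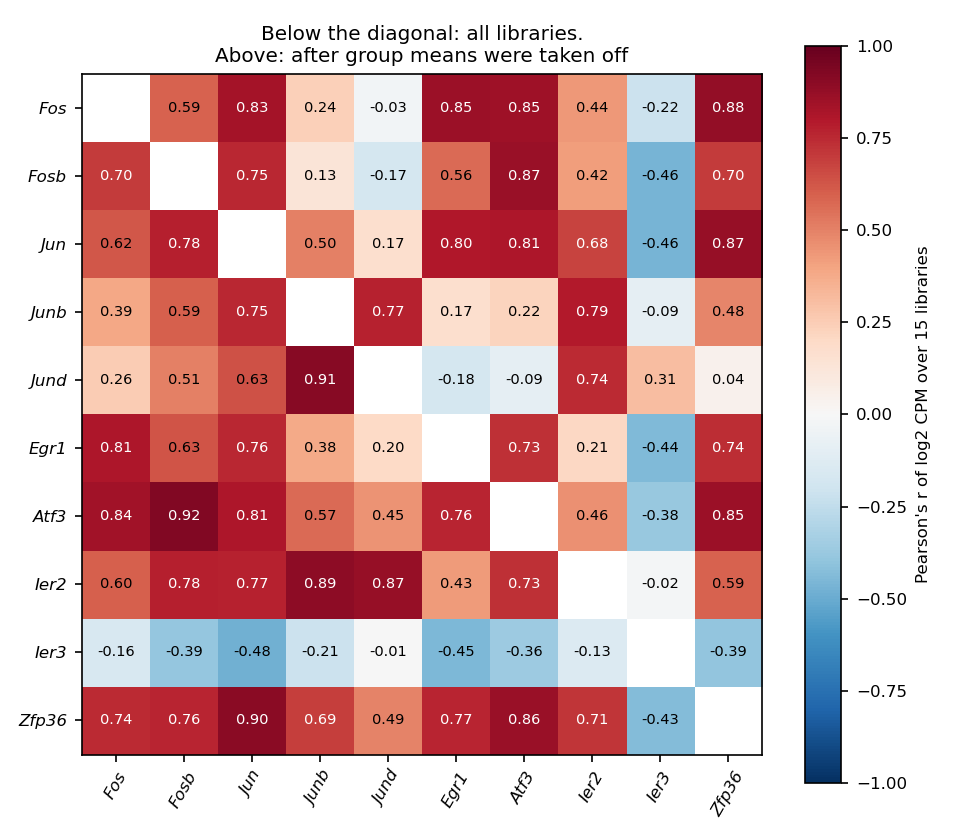
Pearson's r between the log2 CPM of each pair of genes over 15 libraries, below the diagonal as measured and above it after the mean of each group was taken off. Junb, Jund and Ier2 correlated with each other at 0.743 to 0.793 above the diagonal. Jund correlated with Fos at −0.03 there, and Ier2 with Jun at 0.677.

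The second set holds the genes richest in G and C. The exons of Junb, Jund and Ier2 had a GC content of 62.4%, 62.7% and 60.9%, and those of the other 7 genes 51.9% to 56.2%. When the trend of counts with GC content was removed from each library, Junb differed by −0.36 from control and −0.41 from obese mice, Jund by −0.32 and −0.39, and Ier2 by −0.34 and −0.24 (log2). The call of Ier2 against obese mice was lost, the other calls of the 3 genes were kept, and Fos (−0.34 and −0.10) and Atf3 (−0.56 and −0.43) kept their values almost exactly. Across all genes the same step moved the calls in formerly obese against control mice from 242 lower and 240 higher to 208 and 252, and against obese mice from 184 and 159 to 136 and 146. With upper-quartile scaling the splits were 276 and 218, and 212 and 139. In obese against control mice, removal of the GC trend moved Junb from 0.11 to 0.05 and Jund from 0.13 to 0.07. There Jun went from 0.16 to 0.17, Fos from −0.25 to −0.24 and Fosb from −0.26 to −0.25. The part of GC content in the ratio of the Jun to the Fos family was not tested.

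**Figure D4:**
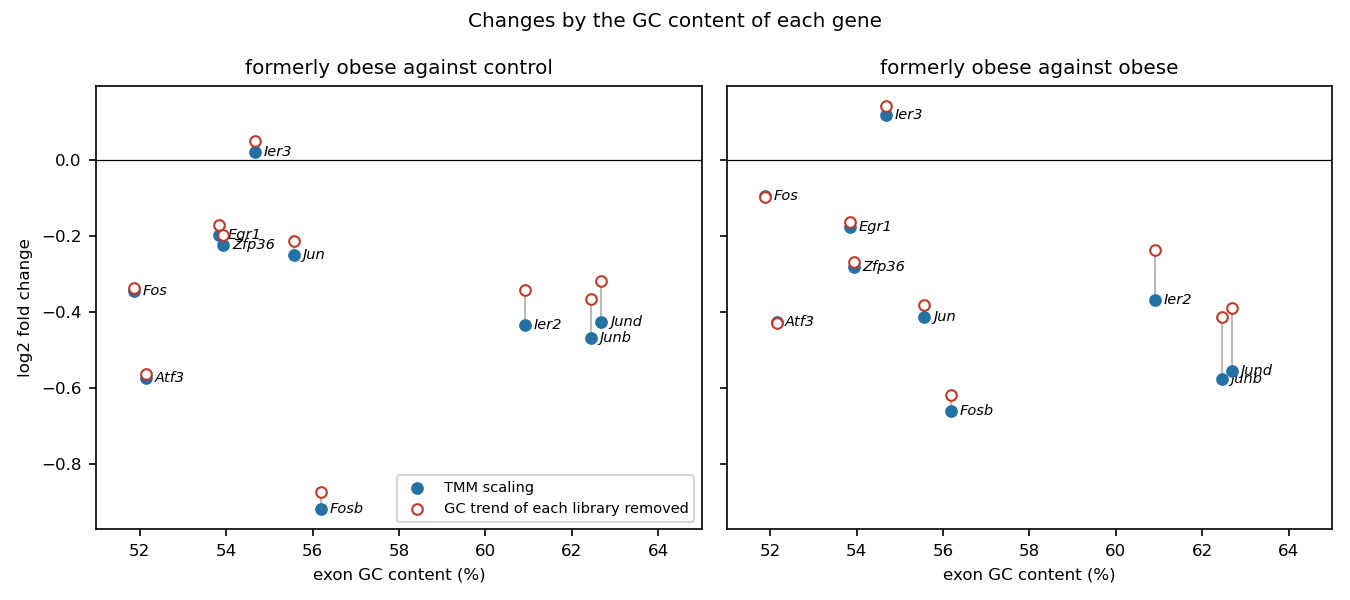
Log2 fold change of each gene in formerly obese against control mice (left) and against obese mice (right) by the GC content of its exons in percent, with TMM scaling (filled) and with the GC trend of each library removed (open). Junb, Jund and Ier2, at 60.9% to 62.7% GC, moved toward 0, for example Ier2 against obese mice from −0.37 to −0.24, and the genes near 52% GC stayed in place.

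The wider pathway was read from 8 lists of 135 other genes, of which 123 were tested, with p-values from the same edgeR fit adjusted over all 12961 genes by the Benjamini-Hochberg method. The lists were written with earlier results of these libraries known. In formerly obese against control mice 16 of the 123 fell and 3 rose, beside 1.87% and 1.85% of all tested genes. The 16 were 3 of 13 other immediate early transcription factors, 9 of 22 effectors and 4 of 19 feedback inhibitors. Of the 14 further AP-1 relatives, 15 SRF, ternary complex and CREB factors, 21 kinases and 9 partners in AU-rich mRNA decay, edgeR called 0 in each of the 3 comparisons. Against control, the median log2 difference of these 4 lists in formerly obese mice was 0.01, −0.01, −0.02 and 0.06. In that comparison an unadjusted edgeR p under 0.05 was found for 6 of the 58 distinct genes in them, beside 2169 of the 12961 tested genes. Between formerly obese and obese mice it was found for 10 of the 58, beside 1731 of all tested genes. In obese against control mice it was found for 0 of the 58, beside 1407. DESeq2 also called 0 of the 58 genes in each comparison.

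Nr4a1, an orphan nuclear receptor induced early by many stimuli, had the smallest p among the transcription factors. Its 5 control mice measured 28.96, 17.29, 19.28, 14.77 and 21.16 CPM, the obese mice 11.57, 14.12, 12.62, 14.28 and 17.24 CPM and the formerly obese mice 5.359, 12.72, 10.77, 9.976 and 11.42 CPM. No formerly obese mouse reached the lowest control mouse, and the log2 difference was −1.01 ± 0.20 (SE, edgeR adjusted p = 0.0233). Csrnp1, a nuclear factor of the early response, fell by 0.47 ± 0.11 on the log2 scale (edgeR adjusted p = 0.0357), from 14.2 ± 1.65 to 10.3 ± 0.817 CPM (SD, n = 5). Klf2, a Krüppel-like factor, fell by 0.78 ± 0.23 (edgeR adjusted p = 0.0887), a call lost without control mouse 5 or formerly obese mouse 5. In obese against control mice Nr4a1 was at −0.54 ± 0.19, Csrnp1 at −0.25 ± 0.11 and Klf2 at −0.57 ± 0.23. None of them was called there by edgeR, while DESeq2 called Nr4a1. Between formerly obese and obese mice edgeR called none of them either.

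Among the effectors, Sik1, a salt-inducible kinase under CREB control, fell by 0.55 ± 0.12 (log2, SE, edgeR adjusted p = 0.0268). Trib1, a pseudokinase scaffold, fell by 0.32 ± 0.09 (edgeR adjusted p = 0.0653), and Cyr61, a secreted matrix protein, by 0.73 ± 0.20 (edgeR adjusted p = 0.0681). Arc, better known from synapses, fell by 1.15 ± 0.34 at a low level of 3.15 ± 1.02 to 1.41 ± 0.805 CPM (edgeR adjusted p = 0.0823), a call lost without control mouse 5. Obese mice differed from control mice by −0.23 ± 0.12 in Sik1 and −0.17 ± 0.09 in Trib1. In Cyr61 the value was −0.02 ± 0.19 and in Arc −0.626 ± 0.325, and none of these was called. Of these genes edgeR called only Cyr61 between formerly obese and obese mice. Sgk1, a kinase induced by glucocorticoids, went the other way. It rose in obese mice by 0.60 ± 0.13 (edgeR adjusted p = 0.0918), from 156 ± 24.6 to 236 ± 48.9 CPM, a call lost without obese mouse 3. Against control it also rose in formerly obese mice, by 0.40 ± 0.13 (edgeR adjusted p = 0.124), a call lost without control mouse 1, 2 or 3 or formerly obese mouse 1, 2, 3 or 5.

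The feedback inhibitors switch off the signals that induce the 10 genes. Dusp1, the phosphatase of nuclear MAP kinases, measured 154.0, 131.4, 128.0, 93.81 and 137.8 CPM in control and 55.69, 112.8, 76.38, 89.02 and 70.79 CPM in formerly obese mice. Only the second formerly obese mouse, which was also high in Fos, Fosb and Atf3, exceeded the lowest control mouse. Dusp1 fell by 0.67 ± 0.19 (log2, SE, edgeR adjusted p = 0.0682). Spry1, an inhibitor of receptor tyrosine kinase signalling, fell by 0.40 ± 0.09 (edgeR adjusted p = 0.0326) and its relative Spry2 by 0.30 ± 0.07 (edgeR adjusted p = 0.040), the latter not without control mouse 1 or 2. Dusp5, a phosphatase of ERK, fell by 0.60 ± 0.20 (edgeR adjusted p = 0.125), which did not hold in 6 of the 15 fits that left out 1 library, those without control mouse 1, 2 or 5 or formerly obese mouse 1, 4 or 5. In obese against control mice Spry1 was at −0.35 ± 0.09, which was called. Spry2 was at −0.205 ± 0.073 there, Dusp1 at −0.25 ± 0.18 and Dusp5 at −0.19 ± 0.19, not called. Between formerly obese and obese mice edgeR called none of these genes.

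**Figure D5:**
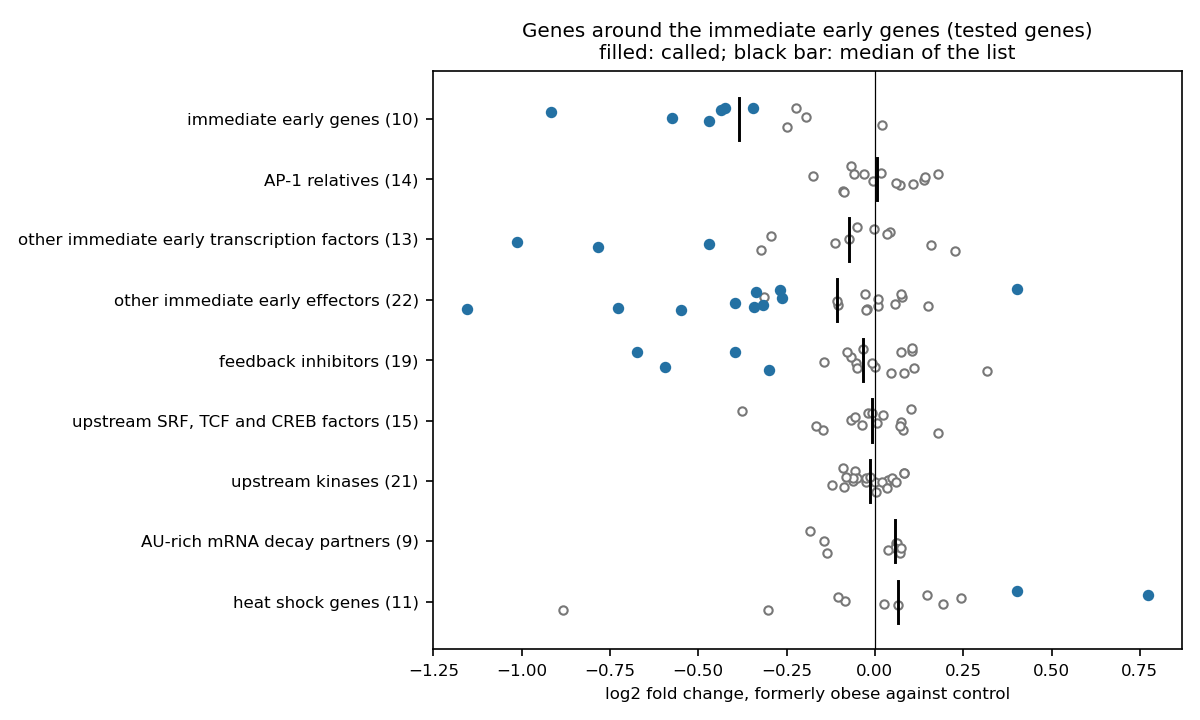
Log2 fold change of formerly obese against control mice for the tested genes of each list (number in brackets), with called genes filled and the median of the list as a bar. Called genes lie to the left of 0 in 4 lists apart from 1 effector (6 immediate early genes, 3 transcription factors, 9 effectors, 4 feedback inhibitors), while the lists of upstream factors, kinases and decay partners hold 0.

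Heat shock genes, which respond to protein damage, were read beside them. Their sum was 2610 to 2860 CPM in control mice, 2570 to 2860 in obese mice and 2550 to 3050 in the formerly obese mice, so the ranges overlapped. Of 11 tested, 2 rose in formerly obese against control mice, Hsph1 by 0.77 ± 0.17 (edgeR adjusted p = 0.0268) and Hspa5, the chaperone of the endoplasmic reticulum, by 0.40 ± 0.12 (edgeR adjusted p = 0.0912, a call lost without control mouse 2 or 5 or formerly obese mouse 2 or 4). Their part in the levels of the 10 genes was not tested.

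In the other comparisons fewer pathway genes were called. In obese against control mice 4 of 123 were called (Sgk1 and Hsph1 higher, Plk2 and Spry1 lower), beside 0.718% higher and 0.864% lower of all tested genes. The count was 1 without control mouse 1 or 2 or without obese mouse 4 or 5, 2 without obese mouse 1 and 0 without obese mouse 3. Hsph1 was at 0.54 ± 0.17 (log2, SE, edgeR adjusted p = 0.225), Plk2 at −0.29 ± 0.09 (edgeR adjusted p = 0.226) and Spry1 at −0.35 ± 0.09 (edgeR adjusted p = 0.143). Of the 15 fits that left out 1 library, 7 lost the call of Hsph1, 9 that of Plk2 and 5 that of Spry1. Between formerly obese and obese mice 5 of 123 were called lower and 1 higher, beside 1.42% and 1.23% of all tested genes. Klf10, a factor of the TGF-beta early response, fell by 0.55 ± 0.12 (log2, SE, edgeR adjusted p = 0.0541), from 74.5 ± 5.14 to 50.7 ± 12.0 CPM. Cyr61 (−0.71 ± 0.20, edgeR adjusted p = 0.12), Dusp8 (−0.44 ± 0.12, edgeR adjusted p = 0.0979), Dnajb1 (−0.29 ± 0.08, edgeR adjusted p = 0.0919) and Per1 (−0.43 ± 0.15, edgeR adjusted p = 0.192) were lower and Spred1 (0.29 ± 0.09, edgeR adjusted p = 0.152) higher. The call of Per1 was lost without control mouse 3, obese mouse 1, 2, 4 or 5 or formerly obese mouse 3 or 5, and that of Spred1 without obese mouse 1, 2 or 5 or formerly obese mouse 1, 3 or 5. Cyr61 lost its call without obese mouse 2 or 5, Dnajb1 without formerly obese mouse 5, and Dusp8 when the GC trend was removed. That count was 3 without obese mouse 2 or 5 or formerly obese mouse 5, 10 without obese mouse 3 and 11 without formerly obese mouse 2. For formerly obese and control mice the count of 19 was 12 without control mouse 1 and 10 without control mouse 5.

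Outside these lists, the pattern over the 15 libraries was most like the mean of the 10 genes in Ramp1 (r = 0.854), Sh3rf1 (0.848), Cwc25 (0.845), Tcf3 (0.831) and Csad (0.83), out of 10889 genes with a mean of at least 50 counts. The likeness is Pearson's r with the mean standardised log2 CPM, with the group means left in. That mean holds the lower values of formerly obese mice for which the 10 genes were chosen. These are the highest of 10889 correlations over 15 libraries, and no test was run on them. Ramp1, a receptor partner for calcitonin gene-related peptide, measured 57.6 CPM in control mice, 56.1 in obese mice and 42.4 in the formerly obese mice on average.

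DNA methylation was set beside the 10 genes with measurements that did not choose them. The deposited regions that differed in methylation between obese and control mice by whole-genome bisulfite sequencing numbered 13 within 100000 bases of the start of 8 of the 10 genes, 7 with higher and 6 with lower methylation in obese mice. Of all tested genes 56% had a region at that distance, with a median of 1, the same as over the 10 genes. Within 10000 bases 3 of 10 genes had a region, against 9.57% of tested genes, and within 500000 bases 10 of 10, against 96.0%. One region lay inside a gene of the set. At chr12:85476505-85476536 (mm10), 32 bases with lower methylation in obese mice lay in exon 4 of 4 of Fos, in the 3′ UTR, 2620 bases after the start. The others within 10000 bases lay 6.1 kb upstream of Ier2 in no listed gene (chr8:84668968-84668993, higher in obese mice) and 5.2 kb downstream of the start of Ier3, inside Flot1 (chr17:35826954-35826970, lower).

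One bisulfite amplicon with values for single mice was near a gene of the set, 67034 bases from the start of Ier2 and inside Nfix, at chr8:84729886-84730011 (mm10). It is far from the promoter, and it was not designed for Ier2 as far as the labels say. The mean methylation level of its 9 CpGs was 92.4% ± 0.369 (SD, n = 5) in control mice, 92.2% ± 0.089 in obese mice and 92.4% ± 0.175 in the formerly obese mice. Single mice ran from 91.8% to 92.8%, 92.1% to 92.3% and 92.3% to 92.6%. Formerly obese mice were 0.26 points above obese mice (exact two-sided permutation p = 0.0159, 0.0476 adjusted over 3 comparisons), with ranges that just overlapped. The other differences were −0.206 points in obese against control mice (exact permutation p = 0.246, or 0.0476 at −0.348 points without control mouse 2) and 0.054 points in formerly obese against control mice (exact permutation p = 0.7857), and the smallest p the design allows is 0.0079. Read depth is unknown in this file, so the counting error of a difference of this size is not known.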

How the data were processed

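RNA-seq libraries of colonic epithelium from 15 mice (5 per group) were read as deposited raw counts per gene. According to the methods and the submitters' processing notes, the authors mapped paired reads of stranded mRNA libraries to mm10 with TopHat2 2.0.4 and counted them with HTSeq. The strand mode and annotation release are not given in the sources used here, so counts of overlapping and antisense genes are uncertain. Bisulfite amplicon values were fractions of methylated reads per CpG, deposited by the authors after mapping with Bismark, and were turned into percent; the file gives no depth. Differentially methylated regions were deposited as positions with a direction, which the authors called with the Rao-Scott likelihood ratio test, 5 obese against 5 control mice. Tables of the authors' DESeq2 1.2.10 fold changes and p-values were not used.

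Counts were filtered with filterByExpr, scaled by TMM and fitted in edgeR 4.0.16 (R 4.3.3) with 15 libraries in 1 quasi-likelihood fit and the group as the term. Depth was 15230391 to 22762095 counts per library. The cutoffs were a fold change over 1.2, p under 0.01 and adjusted p under 0.25, with a prior count of 2 for log2 CPM. On simulated data with 12961 genes, 192 of 200 changed genes were recovered with 35 false calls. The changes were planted in obese libraries, in genes with a mean of at least 50 counts, and at folds well above 1.2. Recovery of smaller changes, such as those of the 10 genes in obese mice, was not measured. The 10 genes and all lists were chosen with earlier results of these data known. Named genes were the 10 members, up to 4 called genes per list and comparison by p, and the 5 genes most like the members. Amplicons within 100000 bases of a start were compared by exact permutation tests in scipy 1.17.1. Alternatives were DESeq2 1.42.0, other scalings and filters, only the compared groups, the replicate number as a block, removal of the GC trend, an adjusted p under 0.05 without a fold cutoff, and leaving out each library. A comparison of protein sequences was planned and not run here.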

Additional observations from a re-analysis of the deposited data

Results flagged for a closer look

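Among 90 sets of 5 mice (the 10 genes and the named pathway genes in 3 groups), 2 held a mouse far from the others, by a gap of more than 0.71 of the range of the group. Chance alone flags about 1 such set in 20. Egr1 measured 216.2 CPM in obese mouse 5, where the other 4 obese mice lay between 125.4 and 147.0 CPM (gap over range 0.762). The same mouse had the highest values of its group for Fos, Fosb, Jun, Atf3 and Zfp36. Spry2 measured 36.86 CPM in obese mouse 2, where the other obese mice lay between 31.5 and 32.9 CPM (gap over range 0.739).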

How the results depend on the processing

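The count of the 10 genes called was the same under DESeq2, 2 other scalings, both filters and the compared groups alone, or moved by 1 gene. In formerly obese against control mice it was 6, and 3 with an adjusted p under 0.05 and no fold cutoff, and 4 to 8 when 1 library was left out. Against obese mice it was 5, and 1 with that stricter cutoff, 3 with the GC trend removed and the replicate number as a block, and 4 to 6 when 1 library was left out. In obese against control mice it was 0 in each of these. Of 720 alternative values of the log2 differences of these genes, 17 lost a call and 8 gained one. The count of other pathway genes in obese against control mice was 4, and 8 with only the compared groups, 0 with the stricter cutoff and 0 to 6 when 1 library was left out. In formerly obese against control mice it was 19, and 6 with the stricter cutoff and 10 to 19 when 1 library was left out. Against obese mice it was 6, and 10 with DESeq2, 3 with GC removal and the block, 0 with the stricter cutoff and 3 to 11 when 1 library was left out. The cause of these moves was not tested, except that a stricter cutoff calls fewer genes by construction. Mice of different groups with the same number correlated at -0.231 to 0.333 in their deviations, so the numbers were not taken as pairs. With the replicate block the 3 comparisons called 0, 6 and 5 of the 10 genes, 3, 19 and 7 pathway genes and 252, 537 and 346 of all genes. Genes with a methylation region numbered 8 within 100000 bases and 3 within 10000. TATAAA was in 2 promoters, and 1 when only the 250 bases before the start were searched. The amplicon difference between obese and control mice had an exact permutation p of 0.0476 without control mouse 2, at -0.348 points, and ran from -0.348 to -0.116 over the mice left out. Ier3 had the fewest counts of the 10 genes, 68 to 137 per library.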
